A study of Mus musculus with 3 samples.

Results

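Autophagy delivers cytoplasm and organelles to the lysosome inside a double membrane, the autophagosome. The 39 genes described here encode its core machinery, from the kinase complex that starts the process to the receptors that tether cargo, together with a pair of transcription factors that act on autophagy and lysosome genes. They were taken as a list of gene symbols and matched through the transcript names of the deposited tables. Each of the 39 symbols matched 1 gene among the 55536 mouse genes of the main gene table, of which 22028 are protein-coding.

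PolyA-selected RNA was sequenced in 3 libraries of activated regulatory T cells, the Foxp3-dependent CD4 T cells that restrain immune responses. The donor was a male mouse, 4 months old, of strain Foxp3CreERT2 x Rosa26YFP, which carries an inducible Cre recombinase allele at Foxp3 and a yellow fluorescent reporter at Rosa26. The labels describe the libraries as technical replicates 1, 2 and 3 of 1 biological replicate. How the cells were sorted, what activated them and whether the inducer was used are not stated in the labels. Since the 3 libraries make up a single group without a control, the results are levels and the spread between libraries, and no condition was compared.

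The main gene table assigned 10981924, 9700630 and 6667391 fragments to mouse genes in replicates 1, 2 and 3. All 8 regulatory T cell markers checked (Foxp3, Il2ra, Ikzf2, Ctla4, Tnfrsf18, Cd4, Cd3e and Trac) were detected in every library, with a summed level of 4643 to 6274 TPM. TPM is a transcript level scaled for transcript length and library. Within this list Ctla4 had 190, 250 and 612 TPM and Foxp3 had 29.5, 28.7 and 49.8 TPM in replicates 1, 2 and 3. Il2ra, Ikzf2, Tnfrsf18, Cd4, Cd3e and Trac were instead lowest in replicate 3, with Cd4 at 314.5, 421.2 and 244.1 TPM. The sum therefore does not show how single markers moved. Markers of other cells differed between libraries as well. The erythroid marker Hbb-bs, a beta-globin gene, had 288, 2.35 and 10.2 TPM in replicates 1, 2 and 3. The 4 plasma cell markers summed to 96.7, 48.3 and 151 TPM, and the 7 B cell markers to 1790, 1478 and 3110 TPM. The 6 myeloid markers summed to 9.21 to 25.3 TPM, the 4 dendritic markers to 2.08 to 3.16 TPM and the 4 stromal, endothelial or epithelial markers to 1.25 to 2.29 TPM, while the 4 CD8 T or NK cell markers summed to 13.7 to 19.2 TPM. Markers listed at 0 in at least 1 library included Hbb-bt, S100a8, Itgax, Siglech, Ncr1, Cdh5 and Pdgfrb. The part of these cells in the autophagy gene levels was not tested. In bulk RNA, more cells of a type and more RNA per cell cannot be told apart.

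As background, the Ulk kinase complex switches the process on, and the lipid kinase Vps34, encoded by Pik3c3, marks the forming membrane with PI3P. Atg9 and Atg2 proteins supply lipid, and a pair of ubiquitin-like conjugation reactions then fix small Atg8 proteins (LC3 and GABARAP) to the membrane lipid phosphatidylethanolamine. Cargo receptors bind these Atg8 proteins on one side and tagged cargo on the other. In regulatory T cells, autophagy is known to support survival and lineage stability.

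Of the 39 genes, 36 reached 1 TPM in all 3 libraries, and the others were Wipi1, Atg4c and Optn. By the same threshold 9988 of 22028 protein-coding genes (45.3%) were detected. The median of log2(TPM + 1) over the 39 genes was 4.28 ± 0.07 (SD, n = 3), beside 4.42 ± 0.07 over the detected protein-coding genes. The former includes the undetected Wipi1, Atg4c and Optn, whereas the latter leaves undetected genes out, so the medians are not like for like. The members were spread very unevenly around their median. Their summed level was 1664, 1787 and 1657 TPM in replicates 1, 2 and 3, and the 5 LC3 and GABARAP genes alone made up 50.6%, 45.1% and 43.5% of it. Cargo receptors followed with 17.8 ± 1.53% (SD, n = 3), conjugation enzymes and proteases with 15.7 ± 1.07%, nucleation genes with 9.72 ± 0.91%, the initiation complex with 6.09 ± 0.48%, lipid transfer genes with 3.03 ± 0.69% and the transcription factors with 1.27 ± 0.18%.

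**Figure D1:**
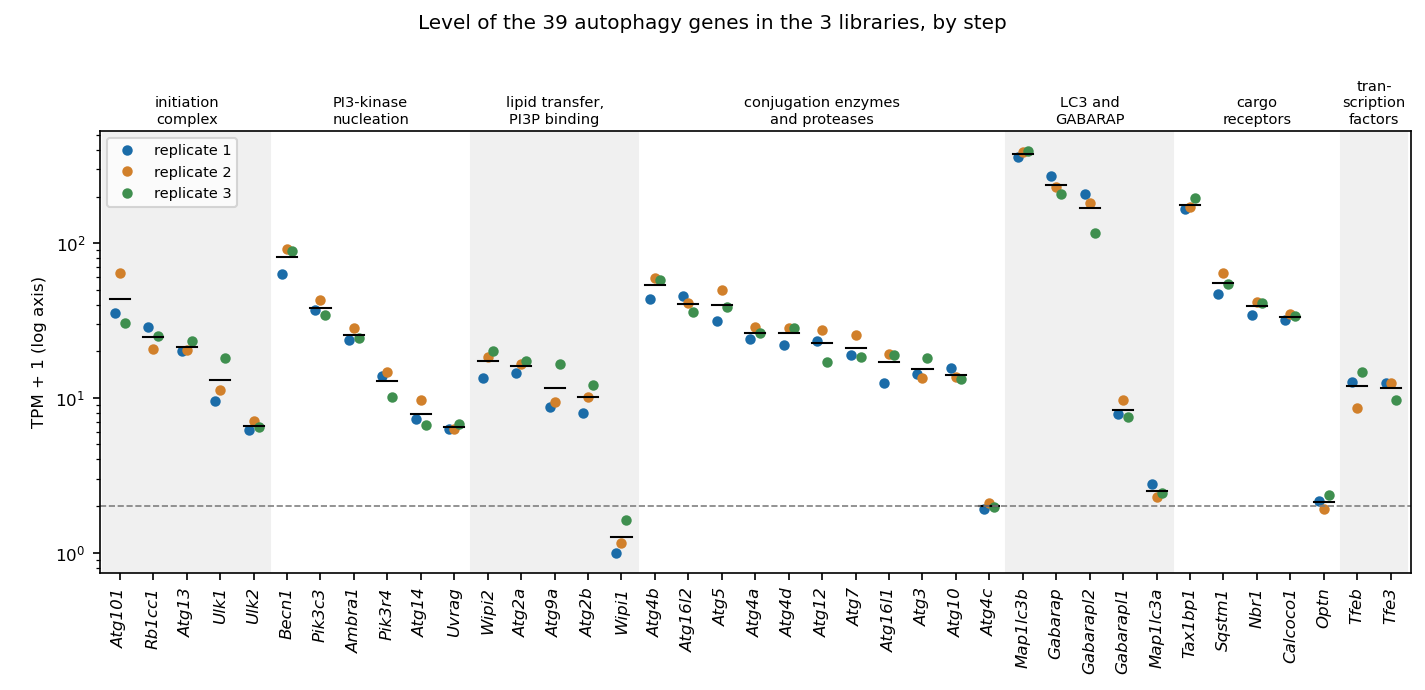
Level of each of the 39 genes as TPM + 1 on a log axis, grouped by step, with 1 point per library, a black line at the mean and a dashed line at 1 TPM. Map1lc3b, Gabarap, Gabarapl2 and Tax1bp1 stand highest, and Wipi1, Atg4c and Optn are the genes with a library under the dashed line.

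The initiation complex had 5 members, all of which were detected. Its median level on the log2(TPM + 1) scale was 4.41 ± 0.11 (SD, n = 3). Atg101 (mm10 chromosome 15, 101284272 to 101290945, plus strand), a small subunit that stabilises Atg13, had the highest mean in the complex. It stood at 34.2, 63.0 and 29.6 TPM in replicates 1, 2 and 3, with replicate 2 well above the others. Rb1cc1, which encodes the large scaffold FIP200, had 27.6, 19.6 and 24.2 TPM. Atg13, the adaptor that links the kinase to the scaffold, had 20.3 ± 1.72 TPM (SD, n = 3). On coding transcript models alone Atg13 was above Rb1cc1 in every library, with 18.9 ± 1.63 beside 10.8 ± 4.25 TPM (SD, n = 3). Ulk1, the main kinase of the complex, had 8.54, 10.2 and 17.2 TPM and was highest in replicate 3. Its relative Ulk2 was the lowest member, at 5.19, 6.07 and 5.53 TPM. Ulk1 exceeded Ulk2 in all 3 libraries and took 62.2%, 62.8% and 75.7% of their joint TPM.

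The 6 nucleation genes encode Vps34 and its partners, and all were detected, with a median of 4.17 ± 0.19 on the log2(TPM + 1) scale. Becn1 (mm10 chromosome 11, 101285952 to 101302286, minus strand), the Beclin 1 scaffold, led them with 62.0, 90.7 and 87.5 TPM, of which only a minor share lay on coding transcript models, as described further on. Pik3c3, the kinase itself, had 36.9 ± 4.47 TPM (SD, n = 3), and Becn1 exceeded it by 1.73, 2.17 and 2.64 times in replicates 1, 2 and 3. On coding transcript models alone the order turned, with 36.2 ± 4.56 TPM for Pik3c3 and 14.1 ± 6.53 TPM for Becn1. Ambra1, a Beclin 1 regulator, had 22.8, 27.5 and 23.5 TPM. Pik3r4, the Vps15 pseudokinase that Vps34 requires, had 12.9, 13.8 and 9.06 TPM, lowest in replicate 3.

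Atg14 and Uvrag define alternative Vps34 complexes, the former for autophagosome formation and the latter for endosomal and later steps. Atg14 had 6.33, 8.76 and 5.65 TPM. Uvrag was the lowest nucleation gene, at 5.27, 5.26 and 5.83 TPM. Atg14 was the higher of the pair in replicates 1 and 2 and Uvrag in replicate 3, so their order did not hold across libraries. On coding transcript models alone Atg14 took 80.7 ± 3.16% (SD, n = 3) of the pair and was higher in every library.

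Among the 5 lipid transfer and PI3P-binding genes, 4 were detected and 1 was nearly silent. Wipi2, the PI3P reader that recruits the conjugation machinery, had the highest mean with 12.5, 17.4 and 19.2 TPM. Atg2a was above it in replicate 1, at 13.5 TPM, and on coding models alone, with 12.8 ± 2.08 TPM beside 9.32 ± 1.91 TPM (SD, n = 3). Wipi1, the relative of Wipi2, had 0, 2 and 7 expected counts, or 0, 0.15 and 0.62 TPM. A count of 0 allows up to 3 counts, a CPM of 0.273 at the depth of replicate 1. Atg2a and Atg2b, which encode lipid-transfer proteins that bridge the endoplasmic reticulum and the growing membrane, had 15.1 ± 1.48 and 9.08 ± 2.03 TPM (SD, n = 3). The level of Atg2b by library was 7.02, 9.14 and 11.1 TPM. Atg2a was the higher in each library, with 62.8 ± 3.08% of the pair. Atg9a, the scramblase of the vesicles that seed the membrane, had 7.75, 8.38 and 15.7 TPM, with replicate 3 above the others. Its exons share 31.8% of their bases with Gm29253 on the same strand, a gene assigned 0.817 TPM. All 4 detected genes of this step were highest in replicate 3 on the TPM scale.

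The conjugation step held 11 genes, of which 10 were detected, with a median of 4.49 ± 0.26. Atg7, the E1-like activating enzyme of both reactions, had 19.9 ± 3.98 TPM (SD, n = 3). The E2-like enzymes Atg3, which acts on Atg8 proteins, and Atg10, which acts on Atg12, had 14.3 ± 2.56 and 13.1 ± 1.29 TPM, and these ranges overlapped. On coding models alone Atg3 was above Atg10 in every library, with 13.3 ± 2.20 TPM beside 8.63 ± 2.12 TPM (SD, n = 3). Atg5 and Atg12, the partners that are joined to each other, had 38.97 ± 9.12 and 21.6 ± 5.18 TPM, with Atg5 above Atg12 in all 3 libraries. The Map1lc3b level was 27.1, 30.9 and 22.8 times that of Atg3 in replicates 1, 2 and 3.

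Atg16l1 forms the membrane-targeting part of the Atg12-Atg5 complex, and Atg16l2 is its less studied relative. Atg16l2 stood at 44.5, 39.9 and 34.8 TPM and Atg16l1 at 11.57, 18.26 and 18.03 TPM. Atg16l2 thus took 79.4%, 68.6% and 65.9% of the pair. On coding transcript models alone its share was 69.8%, 41.0% and 48.7%, so that Atg16l1 was the higher gene in replicates 2 and 3, and the order of the pair depended on the models counted.

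The Atg4 proteases trim Atg8 proteins before conjugation and release them again from the membrane. Atg4b, the main protease for LC3, was the highest gene of the conjugation step at 42.4, 58.5 and 57.1 TPM and took 50.4 ± 1.63% (SD, n = 3) of the TPM of the 4 proteases. Atg4a followed with 25.3 ± 2.40 TPM, and Atg4d had 21.02, 27.25 and 27.15 TPM. These levels overlapped between Atg4a and Atg4d, whereas on coding models alone Atg4a had 24.1 ± 1.89 TPM and Atg4d had 8.69 ± 3.68 TPM (SD, n = 3). On that scale Atg4b had 31.1 ± 5.47 TPM and Atg5 33.0 ± 5.55 TPM, so the highest gene of the step depended on the models counted. Of the 50-base stretches of Atg4a transcripts, 51.2% also occur in its copy Atg4a-ps, which was assigned 1.27 TPM. Atg4c was the lowest gene of the step, at 0.900, 1.08 and 0.980 TPM from 23, 22 and 12 expected counts. Shares ranged from 48.6% to 51.7% for Atg4b and from 22.9% to 26.3% for Atg4a. On coding models the share of Atg4d was 11.5%, 9.40% and 19.3% in replicates 1, 2 and 3.

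The coding ends of the 5 LC3 and GABARAP genes are shown because every Atg8 protein is cut by Atg4 after a glycine near its end, and that glycine is joined to the lipid. The last 48 coding bases of each, stop codon included, were read from the GENCODE M21 transcripts on mm10, with the last glycine codon in capitals.
Map1lc3a (transcript 201, chr2:155277590-155277637, plus strand): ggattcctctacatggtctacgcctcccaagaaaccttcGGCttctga
Map1lc3b (transcript 201, chr8:121596723-121596770, plus strand): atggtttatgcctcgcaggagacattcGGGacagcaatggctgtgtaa
Gabarap (transcript 201, chr11:69994477-69994524, plus strand): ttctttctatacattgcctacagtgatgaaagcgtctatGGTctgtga
Gabarapl1 (transcript 201, chr6:129541120-129541167, plus strand): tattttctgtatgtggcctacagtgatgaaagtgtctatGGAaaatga
Gabarapl2 (transcript 201, chr8:111952358-111952405, plus strand): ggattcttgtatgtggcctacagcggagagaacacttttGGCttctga

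The glycine is codon 120 in both LC3 genes and codon 116 in the 3 GABARAP genes. In Map1lc3b 5 codons follow it before the stop, and in each of the others 1 codon does. Over their aligned coding bases Map1lc3a and Map1lc3b were 75.4% identical, Gabarap and Gabarapl1 were 74.9% identical, and Gabarapl2 was 61.9% and 63.8% identical to Gabarap and Gabarapl1. Any LC3 gene against any GABARAP gene gave 51.0% to 54.2%.

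The levels of these 5 related genes fell into a high set of 3 genes and a low set of 2. Map1lc3b (mm10 chromosome 8, 121590361 to 121598760, plus strand), which encodes LC3B, the usual marker of autophagosomes, was the highest of all 39 genes by TPM, with 358, 386 and 392 TPM. Whole-number counts on the M4 annotation were also deposited and are not divided by length. On these counts Tax1bp1 and Gabarap were above Map1lc3b in every library. Gabarap (chromosome 11, 69991143 to 69994951, plus strand), the founding member of the GABARAP branch, had 269, 231 and 206 TPM. Gabarapl2 (chromosome 8, 111940703 to 111953612, plus strand), also known as GATE-16, had 207, 180 and 115 TPM. Gabarapl1 had 6.87, 8.67 and 6.57 TPM. Map1lc3a, encoding LC3A, was lowest with 1.78, 1.28 and 1.44 TPM from 10, 6 and 5 expected counts, all of them on a model annotated as non-coding. Map1lc3b was thus 201, 301 and 272 times as high as Map1lc3a, and Gabarap was 39.2, 26.6 and 31.4 times as high as Gabarapl1.

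Within the family, Map1lc3b took 42.5%, 47.9% and 54.4% of the TPM in replicates 1, 2 and 3, Gabarap 31.9%, 28.6% and 28.6%, and Gabarapl2 24.6%, 22.3% and 15.9%. Map1lc3b led in every library by TPM, and the order of the 5 genes was the same in each. On the M4 counts Gabarap led instead, with 2788, 1909 and 1328 in replicates 1, 2 and 3. Map1lc3b had 1541, 1263 and 1089 M4 counts. The expected counts of the main table were 2173, 1531 and 1016 for Gabarap and 3892, 3706 and 2820 for Map1lc3b. The reason for this reversal was not tested. With coding models alone, Map1lc3b took 59.2 ± 4.08% (SD, n = 3), Gabarap 32.4 ± 2.62% and Gabarapl2 7.29 ± 1.52%. Some sequence of this family is also found in pseudogenes. Of all stretches of 50 bases in Map1lc3b transcripts, 6.01% also occurred in transcripts of other genes, led by the processed pseudogene Gm6055, which was itself assigned 58.0 TPM on average. For Gabarapl2 the share was 12.2%, led by the processed pseudogene Gm3724. The levels of these genes are uncertain to the extent that fragments could be split with such copies.

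Cargo receptors recognise ubiquitin-tagged proteins, organelles or microbes. Tax1bp1 (mm10 chromosome 6, 52713729 to 52766780, plus strand), a receptor for ubiquitin-tagged protein aggregates and damaged organelles that is also known as a brake on NF-kappaB signalling, led them with 165, 170 and 195 TPM. It took 59.7%, 55.1% and 60.4% of the TPM of the 5 receptors. Sqstm1, which encodes p62, the most studied of them, followed with 54.2 ± 8.37 TPM (SD, n = 3), and Tax1bp1 exceeded it by 3.57, 2.70 and 3.65 times. Sqstm1 exons share 17.3% of their bases with Mrnip on the opposite strand.

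Nbr1, a p62-like receptor, had 38.1 ± 4.30 TPM, and Calcoco1, a receptor for the endoplasmic reticulum, had 32.5 ± 1.55 TPM. Sqstm1 exceeded Nbr1 and Nbr1 exceeded Calcoco1 in every library. On coding models alone Calcoco1 was above Nbr1 in every library, with 31.0 ± 1.47 and 25.7 ± 3.55 TPM (SD, n = 3). Optn, the optineurin receptor used in mitophagy, was lowest at 1.16, 0.920 and 1.34 TPM from 17, 16 and 13 expected counts. The ratio of Tax1bp1 to Optn was 142, 185 and 146.

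Tfeb and Tfe3 encode related transcription factors that enter the nucleus when the nutrient kinase mTORC1 is inactive. Tfeb had 11.7, 7.62 and 13.7 TPM and Tfe3 had 11.5, 11.4 and 8.72 TPM. Tfeb was the higher in replicates 1 and 3 and Tfe3 in replicate 2. With all models Tfeb took 50.5 ± 10.6% of the pair, so no order held across libraries. On coding transcript models alone Tfeb took 54.1%, 60.2% and 67.6% and was higher in every library, so the order depended on the models counted. RNA level does not report where the proteins were.

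Both factors bind DNA sites built on CACGTG, a palindrome that reads the same on both strands, and members holding it are shown with the motif in capitals. RefSeq promoter windows on GRCm38.p6, reaching from 250 bases before to 50 after a start, were held for 33 of the 39 genes, and 4 of these genes carried the motif.
Atg3 (chr16:45158723-45158752, plus strand): gcctccttttgtCACGTGtcctgggagagt
Atg3 (chr16:45158746-45158775, plus strand): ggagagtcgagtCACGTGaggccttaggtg
Atg5 (chr10:44268313-44268342, plus strand): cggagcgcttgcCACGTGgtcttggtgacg
Atg7 (chr6:114670952-114670981, plus strand): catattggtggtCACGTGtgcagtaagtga
Atg14 (chr14:47568418-47568447, minus strand): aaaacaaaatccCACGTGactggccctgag
By windows, 4 of 40 member windows held the motif, beside 7.15% of all 32851 windows. The Atg7 and Atg14 windows belong to RefSeq starts inside the M21 gene spans. Those spans begin at 114643097 for Atg7 (plus strand) and 47570649 for Atg14 (minus strand). A match here is a description of these letters, and binding was not measured.

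**Figure D2:**
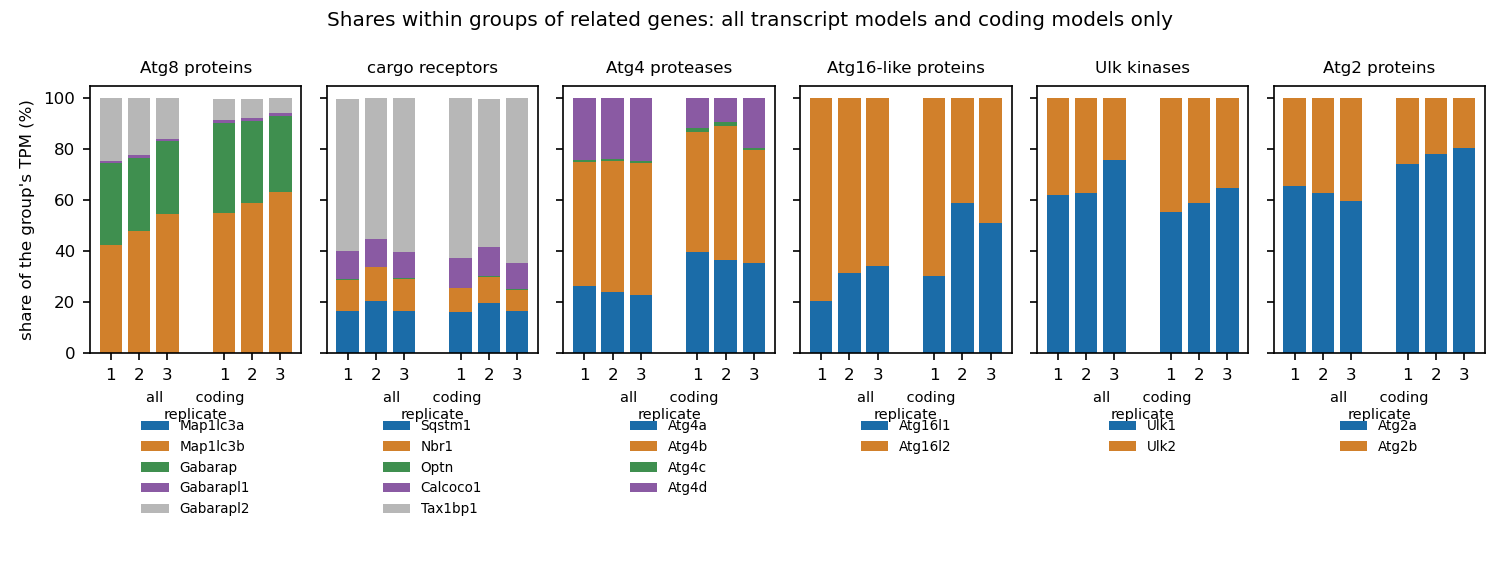
Share of a related group's TPM taken by each gene, in percent, with 1 stacked bar per library from all transcript models (left set of bars in each panel) or from protein-coding models alone (right set of bars). Map1lc3b and Tax1bp1 lead their groups in every bar, and the Atg16-like pair changes order in replicates 2 and 3 when coding models alone are counted.

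Transcript tables divided each gene among annotated models, some of them coding and others annotated as retaining an intron, as targets of nonsense-mediated decay or as processed transcripts without a reading frame. TPM per model favours short models, since few fragments on a short model give a high level, so shares of fragments are given as well. Of the 39 genes, 31 had the same leading model by TPM in all 3 libraries. Over the 36 that are detected and have several models, this was 30 (83.3%), beside 74.2% of 9258 detected protein-coding genes with several models. The leading model was not coding in every library for 5 genes, namely Becn1, Pik3r4, Atg2b, Map1lc3a and Gabarapl2. Of the 36 genes 5 (13.9%) met this, beside 9.51% of all such genes, so neither share stood far from its background. The median share of TPM outside coding models was 22.9% for the 36 genes and 15.8% for all.

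Genes with a steady coding leader included Atg13, where transcript 202 took 92.0%, 93.6% and 92.9% of TPM, Atg101, where transcript 201 took 100%, 98.0% and 94.6%, and Pik3c3, where transcript 203 took 96.4% and 95.2% in replicates 1 and 2 and was lowest in replicate 3. Gabarapl1 lay on transcript 201 alone in all 3 libraries. Atg3, Atg4a and Atg5 had 78.6% or more of their TPM on transcript 201, a coding model. Calcoco1 transcript 201 took 89.4%, 83.2% and 82.4%, and Tax1bp1 transcript 201 took 63.0%, 70.1% and 65.0%.

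In the main table Becn1 had the largest share of TPM outside coding models after Map1lc3a, whereas in the second quantification Atg16l2 (86.9%) and Uvrag (84.5%) were also above Becn1 (83.4%). Transcript 201, annotated as a target of nonsense-mediated decay and 2123 bases long, took 43.2%, 44.4% and 37.7% of Becn1 TPM and 61.1%, 52.3% and 57.3% of its fragments. All non-coding models together took 82.7 ± 6.32% (SD, n = 3) of TPM, which left 9.16, 11.5 and 21.5 TPM on coding models. Becn1 exons share 43.9% of their bases with Cntd1 on the opposite strand, a gene assigned 0.187 TPM. Whether the counting used strand is not stated in the files or labels, so reads of the pair cannot be told apart on the shared bases.

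Pik3r4 transcript 211, a retained-intron model of 1358 bases, took 39.2%, 37.6% and 46.9% of the gene's TPM but 14.7%, 23.8% and 19.1% of its fragments. Atg2b transcript 205, a processed transcript of 1736 bases, took 45.8%, 55.1% and 59.4% of TPM and 28.8%, 29.9% and 27.1% of fragments. For Ulk1 the gap between scales was wider, with 46.3 ± 5.68% of TPM but 7.63% of fragments on average outside coding models.

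Gabarapl2 divided almost evenly by fragments between a coding and a non-coding model. Transcript 203, annotated as retained intron, took 73.1%, 72.2% and 68.5% of TPM and 50.2%, 46.4% and 49.2% of fragments. Coding transcript 201 took 49.5%, 52.8% and 50.4% of fragments. The models are shown at the place where they part, the 30 bases before and, in capitals, the first 30 bases of the shared second exon of transcript 201, on mm10 and the plus strand.
Gabarapl2 transcript 201 (chromosome 8, 111940823 to 111941189, spliced): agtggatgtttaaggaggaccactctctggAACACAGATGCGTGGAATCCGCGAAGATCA
Gabarapl2 transcript 203 (chr8:111941130-111941189): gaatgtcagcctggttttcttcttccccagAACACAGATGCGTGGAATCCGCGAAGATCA
Transcript 203 starts at 111941068, inside the first intron of transcript 201, and lacks the first exon with the annotated start codon at 111940819. Its 749 bases comprise 657 shared with transcript 201 and 92 of its own, all before the shared exon, and it ends at 111952742 where transcript 201 runs on to 111953612. Transcript 201 has 1020 bases that transcript 203 lacks. Whether the RNA in these cells begins inside the intron was not tested. The second quantification also placed transcript 203 first in all 3 libraries, with 63.5% of TPM outside coding models on average.

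A change of leading model between libraries was seen in 7 genes, and Wipi1, with no counts in replicate 1, had no leader there. In Rb1cc1 the leader was transcript 211 in replicate 1 and transcript 205 in replicate 2, both retained-intron models, and the coding transcript 212 in replicate 3, with 31.9%, 25.3% and 40.6% of TPM. By fragments the coding transcript 212 took 47.4%, 63.0% and 57.4%, more than the others named. Atg4d likewise moved from transcript 203 to 205 and to the coding 201, while by fragments 201 took 63.7%, 83.6% and 70.2%. Atg4d exons share 19.3% of their bases with Kri1 on the opposite strand, which had 28.7 TPM. Atg16l2 was divided among 17 models, led by the coding 202, the decay target 211 and the coding 201 in replicates 1, 2 and 3, with a top share of 21.6%, 15.5% and 13.2%, the lowest leading shares of these 7 genes. Atg14, Ambra1 and Atg4c changed between coding models, and Tfe3 changed between coding transcripts 205 and 204.

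A further 7 genes kept a leader across libraries in the main table but had another one in some library of the second quantification. They were Ulk2, Uvrag, Atg2b, Atg16l1, Map1lc3a, Map1lc3b and Gabarap, which left 24 of the 39 genes with 1 leader throughout. For Map1lc3b the main table placed the coding transcript 203, of 775 bases, first by TPM with 48.9%, 56.6% and 52.1%, whereas transcript 201, of 2532 bases, took 67.6%, 67.9% and 66.7% of fragments. The second quantification placed transcript 205, of 766 bases and also coding, first in all libraries. For Gabarap the coding transcript 201 took 50.4%, 50.9% and 50.6% of TPM in the main table. Uvrag exons share 17.6% of bases with Gm45187 on the opposite strand, at 0.503 TPM, and 71.8 ± 2.70% of its TPM lay outside coding models.

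**Figure D3:**
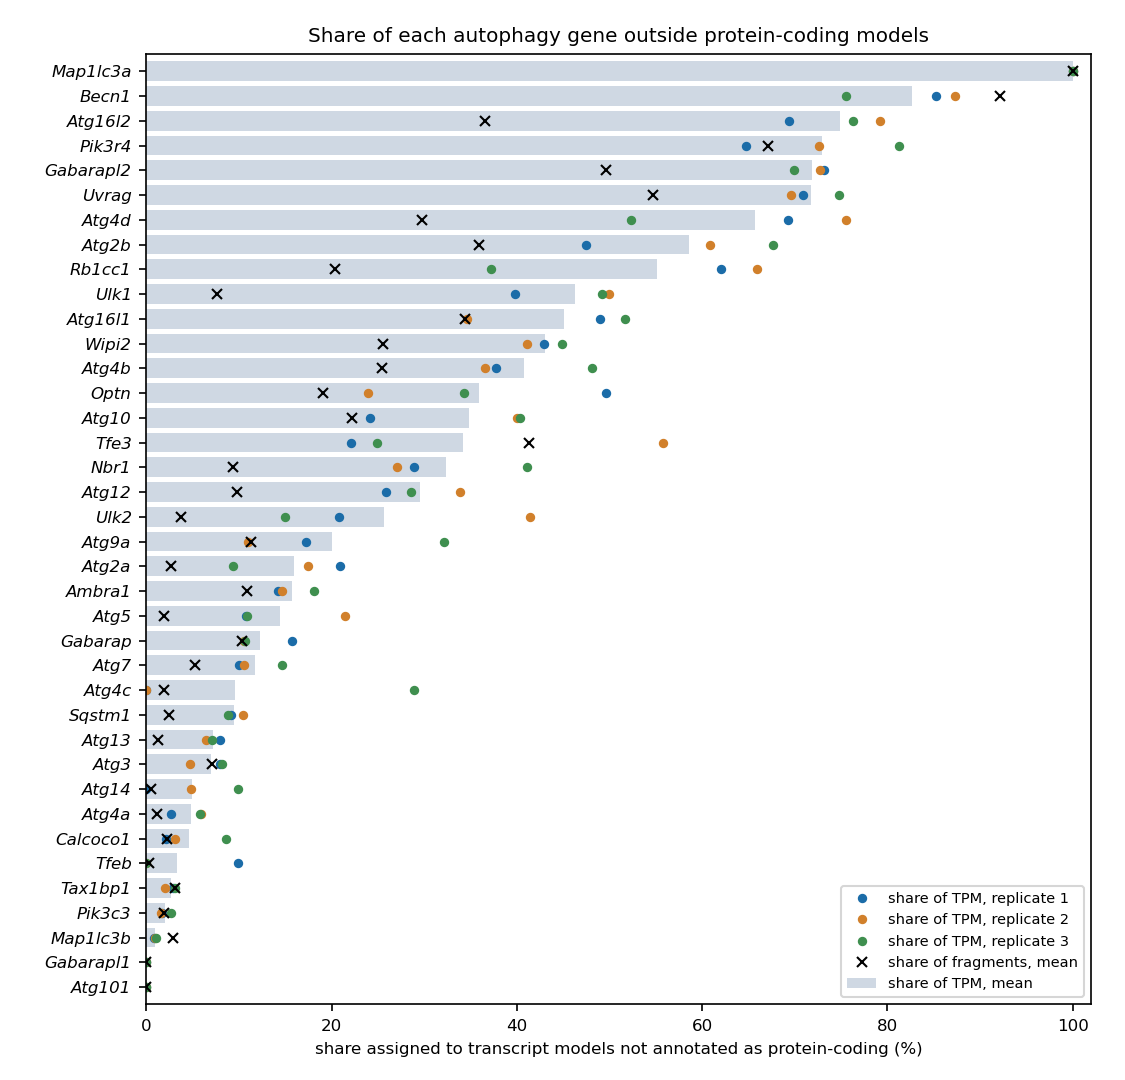
Share of each gene assigned to transcript models that are not annotated as protein-coding, in percent, with a bar for the mean share of TPM, a point per library and a cross for the mean share of fragments, for the 38 genes above 0 in every library. Map1lc3a, Becn1, Atg16l2, Pik3r4, Gabarapl2 and Uvrag stand highest, and for most genes the cross lies left of the bar's end.

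To ask which members differed between the libraries by more than sampling noise, each gene with a mean expected count of at least 10 was tested by a chi-square test against library sizes scaled by TMM, which corrects for composition. Of 37 members tested, 28 passed at a Benjamini-Hochberg adjusted p under 0.05, or 75.7%, beside 8496 of 12997 genes (65.4%). That share of members is near the background. Without replicate 3, 14 of 37 members passed, beside 32.2% of all genes tested. With a negative binomial model that adds the trended dispersion of edgeR, 0 of 37 members passed (1 had an unadjusted p under 0.05, Atg9a at p = 0.0335), beside 153 of 12997 genes (1.18%). Because that dispersion is itself estimated from these 3 libraries, it includes the differences being tested. Map1lc3a and Wipi1 had too few counts to test, and those that did not pass the chi-square test were Atg13, Ulk2, Uvrag, Atg4a, Atg4c, Gabarapl1, Nbr1, Optn and Calcoco1.

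The members that differed most were given on CPM scaled by TMM, a total-scaled count (CPM) that is not divided by length. Atg101 had 31.3, 52.2 and 24.7 CPM in replicates 1, 2 and 3, a fold of 2.11 between the highest and the lowest library. Atg9a had 22.1, 20.5 and 42.0 CPM, a fold of 2.05. Pik3r4 had 26.5, 32.1 and 16.6 CPM, a fold of 1.93. The outlying library was thus replicate 2 for Atg101, replicate 3 on the high side for Atg9a and replicate 3 on the low side for Pik3r4.

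Gabarapl2 had 142, 114 and 77.7 CPM, a fold of 1.83. Ulk1 had 23.0, 21.5 and 37.9 CPM, a fold of 1.76, and Tfeb had 16.5, 11.6 and 19.8 CPM, a fold of 1.72. These genes were not high in the same library, and each missed the threshold under the edgeR dispersion. Calcoco1 lay at the other extreme, with 66.2, 64.9 and 65.7 CPM and a fold of 1.02.

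All 4 tested lipid transfer genes had their highest level in replicate 3 by both CPM and TPM. Of the 5 initiation genes, 4 were highest in replicate 3 by CPM, but by TPM Ulk1 and Atg13 alone were. Of the 6 nucleation genes, 5 were highest in replicate 2 by CPM. These counts include genes that did not pass the chi-square test, and the steps were not tested against each other. Over the 37 tested members 21.6% were highest in replicate 1, 37.8% in replicate 2 and 40.5% in replicate 3, beside 33.5%, 31.3% and 35.2% of all tested genes. The erythroid marker Hbb-bs was highest in replicate 1 and plasma cell markers in replicate 3, and their part in these differences was not tested.

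**Figure D4:**
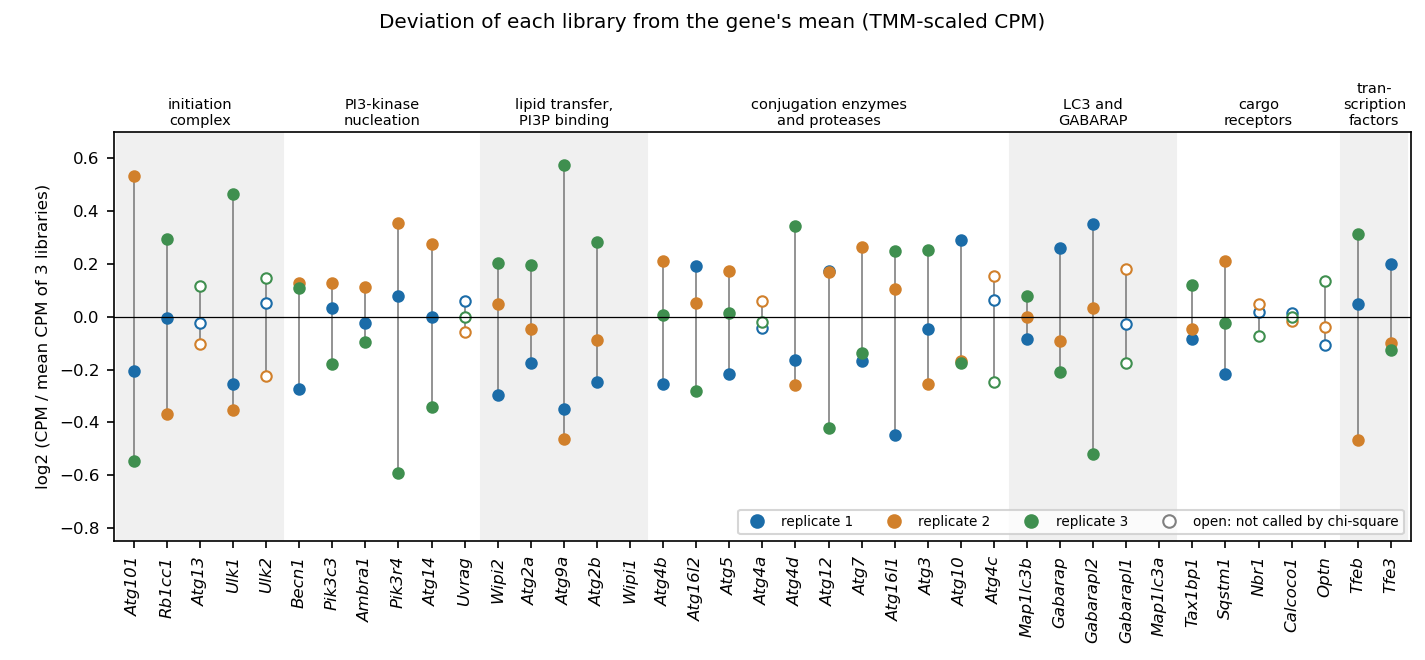
Deviation of each library from a gene's mean, as log2 of TMM-scaled CPM over the mean of the 3 libraries, for the 37 genes tested, with filled points where the chi-square test passed. Atg101, Atg9a and Pik3r4 span the widest ranges, and Calcoco1, Nbr1, Atg4a and Uvrag lie near 0.

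Neighbouring parts of the pathway were read from lists of other genes. Early membrane and PI3P factors were all detected (8 of 8), and 5 of the 8 passed the chi-square test. For this list and those that follow, the shares over all genes are 45.3% of protein-coding genes detected and 65.4% of tested genes passing, and no list was tested against them. Among them Vmp1, a scramblase of the endoplasmic reticulum needed for autophagosome formation, had 402 ± 50.4 TPM (SD, n = 3), in the range of Map1lc3b. Rubcn, which encodes the Vps34 inhibitor Rubicon, had 7.72 ± 3.29 TPM. Of 14 genes for fusion with the lysosome, 14 were detected and 12 passed the test, beside 65.4% of all genes. The SNARE gene Vamp8 had 281 ± 22.0 TPM and the GTPase gene Rab7 had 267 ± 2.99 TPM, whereas the autophagosomal SNARE gene Stx17 had 10.3 ± 2.86 TPM.

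Of 14 organelle receptor and kinase genes, 13 were detected and 10 of 13 tested passed, beside 45.3% and 65.4% over all genes. Bnip3l, a mitophagy receptor also called Nix, had 398 ± 42.7 TPM, while its relative Bnip3 had 10.2 ± 0.38 TPM. Pink1, the kinase that marks damaged mitochondria, had 13.5 ± 4.68 TPM. Tbk1, the kinase that phosphorylates cargo receptors, had 75.5 ± 20.2 TPM.

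The nutrient kinase list held 14 genes for kinases upstream of Ulk1 and for their partners and regulators. Of these, 12 were detected and 7 of 12 tested passed, beside 45.3% and 65.4% over all genes. Mtor, the kinase that holds autophagy down, had 13.7 ± 6.84 TPM. For the activating kinase AMPK, the catalytic subunit gene Prkaa1 had 16.0 ± 4.62 TPM, while Prkaa2 was at 0.00667 TPM. Of 16 lysosome genes, 15 were detected and 12 of 15 tested passed, beside the same shares. The protease genes Ctsb and Ctsd led by level, Ctsb at 372 ± 74.9 TPM and Ctsd at 254 ± 40.8 TPM. The median log2(TPM + 1) was 5.35 ± 0.20 for organelle receptors and 5.02 ± 0.13 for the lysosome. It was 4.86 ± 0.19 for fusion, 4.77 ± 0.13 for early membrane factors and 3.91 ± 0.17 for the nutrient kinase list. By the edgeR dispersion 0 genes of these 5 lists passed, as for the members.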

How the data were processed

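The members and lists were chosen with earlier results of these data known. PolyA RNA was sequenced in 3 libraries of 1 group. The authors' deposited gene and transcript tables hold expected counts and TPM on GENCODE M21 and mm10, computed from transcriptome alignments, per the file headers and names. A second deposited transcript table holds estimated counts and TPM, and a gene table on M4 holds whole-number counts, both deposited by the authors. The programs, the counter and the strand setting are not stated there or in the labels. Percent shares of a gene's transcripts, also deposited by the authors per the file headers, were recomputed from TPM. Spike-in and other entries without a mouse gene ID were left out. Some genes of the marker and pathway lists are not reported here. Replicate numbers came from the sample descriptions.

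Levels are the mean and SD of deposited TPM, detected meaning at least 1 TPM in all 3 libraries. The gene table also gives an interval for each TPM, and for 13, 17 and 17 of the 39 genes in replicates 1, 2 and 3 the TPM lay above its own interval, and for 2, 1 and 1 below it. The reason is not stated in the files, so absolute TPM carries that uncertainty and the intervals were not used. The SD measures only the spread between these libraries, which the labels call technical. Expected counts were rounded, filtered at a mean of 10, scaled by TMM (edgeR 4.0.16, R 4.3.3) and tested by chi-square with 2 degrees of freedom, adjusted by Benjamini-Hochberg over all tested genes. Stretches of 50 bases and exon overlaps were computed from M21. The code was tested on simulated data. The pseudocount was 1. Floors of 3 counts cover counting error only. Alternatives were the trended negative binomial dispersion, DESeq2 1.42.0 size factors, no filter, the second quantification, M4 counts, other thresholds, leaving out each library and, added after the data were seen, coding models alone. Python 3.11.15 and pandas 2.3.3 were used. Members singled out were the highest and lowest of each step, the 6 with the largest fold between libraries, and those with changing leading transcripts. Genes named from the other pathway lists followed no such rule and are not always the extremes of their list.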

Additional observations from a re-analysis of the deposited data

How the results depend on the processing

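The count of members varying between libraries was 28 of 37, and it fell to 0 under the negative binomial dispersion, as the count over all genes fell to 153. Leaving out each library gave 14 to 22 members and 4224 to 6953 genes, the lowest counts without replicate 3 (the cause was not tested). DESeq2 size factors, no filter, the second quantification and M4 counts passed 75.7%, 71.8%, 76.3% and 73.0% of members tested, beside 65.4%, 32.4%, 60.2% and 72.3% of all genes. Without the filter 27819 genes were tested in place of 12997. The added genes have a mean count under 10, where the test can detect little, so 71.8% and 32.4% are not like for like. The second quantification shifted the median of all detected protein-coding genes by -0.674 on the log2 scale and that of the members by -0.545. In that table a model of 237 bases, Gm29013 transcript 201, took 22.0%, 18.8% and 11.4% of TPM. Its step medians were 3.85 for initiation, 3.38 for nucleation, 2.88 for lipid transfer, 3.93 for conjugation, 6.36 for LC3 and GABARAP, 4.87 for cargo receptors and 2.82 for transcription factors. With coding models alone, these were 3.49, 3.34, 3.17, 3.79, 5.54, 5.00 and 3.23. Leaving out members under 1 TPM gave 5.53 for cargo receptors. The share of the LC3 and GABARAP genes was 44.9% in the second quantification and 48.8% with coding models alone. By mean share the leading gene was the same under all 7 settings in 10 of 11 related groups, although single libraries differed for the Atg16-like pair and for Atg14 and Uvrag. The M4 counts were not among these settings. On them Gabarap was above Map1lc3b in every library, and Ulk2 was above Ulk1 in replicates 1 and 2. Tfe3 led Tfeb by fragment counts and without replicate 3. No paired analysis was possible because the libraries form 1 group with no contrast. Depth limits Wipi1, Map1lc3a, Atg4c and Optn, each under 30 counts a library.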
